A study of Sus scrofa with 63 samples.

Results

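CD163, SLC11A1 and NCF4 are genes of mononuclear phagocytes, and their signals were followed in pig skin injured by sulfur mustard, a vesicant that alkylates DNA and protein. The 3 genes were taken from 6765 genes with a single symbol on the GeneChip Porcine Genome array. Any probe set annotated to such a gene was a member, which gave 4 probe sets: 2 for CD163 and 1 each for SLC11A1 and NCF4. CD163 is represented by its brighter probe set, judged by the mean of all 63 arrays.

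Skin on the abdomen of female Yorkshire crossbred pigs received 400 µL of neat sulfur mustard for 8 min, which left lesions of 3 cm, and punch biopsies of 8 mm were taken. The groups were sulfur mustard-exposed sites, sites of sham animals that were prepared but got no agent, and unexposed control sites on the exposed animals. Each of 9 times (1, 2, 4, 24, 48, 72, 168, 336 and 514 h) had 3 exposed arrays, 1 sham array and 3 control arrays, so that 63 arrays were used in all. Exposed and control sites lay on the same animals, so a control site is skin of an injured animal, and the 9 sham arrays are the only skin of animals without an injury. The labels call the last time 514 h, and the design text gives a slightly shorter time in days. Medians of single arrays ran from 7.75 to 7.86 (log2). How precise a value is depends on how many arrays stand behind it.

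CD163 is a scavenger receptor on the surface of monocytes and macrophages that takes up haptoglobin bound to hemoglobin. Hemoglobin taken up in this way is broken down by heme oxygenase, and the iron is stored or exported. SLC11A1, also called NRAMP1, is a metal transporter in the phagosome membrane that moves iron and manganese away from engulfed microbes. NCF4 encodes p40phox, a cytosolic subunit of the phagocyte NADPH oxidase, the enzyme complex that makes superoxide. CD163 is largely restricted to monocytes and macrophages, while SLC11A1 and NCF4 are also expressed in neutrophils. The array measures whole biopsies, in which more cells of a type and more RNA per cell cannot be told apart.

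CD163, SLC11A1 and NCF4 were higher in exposed than in control skin from 24 h to 168 h, and none of the 3 was past the threshold at 1, 2, 4 or 514 h. Averaged over 24 to 72 h, SLC11A1 rose by 2.94 ± 0.14 on the log2 scale (7.68-fold), NCF4 rose by 1.72 ± 0.16 (3.29-fold) and CD163 rose by 1.60 ± 0.22 (3.02-fold). Each of these differences was positive in 9 of 9 pairs, where a pair joins exposed and control arrays of equal time and replicate number. Differences carry their standard error after ±, from limma, which fitted a linear model to each probe set over all 63 arrays. A difference was called where its Benjamini-Hochberg adjusted p was under 0.05. A gene is said to rise or fall in a window where its exposed sites were higher or lower than its control sites. Adjusted p for the 24 to 72 h window was 1.26e-18 for SLC11A1, 5.81e-11 for NCF4 and 2.12e-07 for CD163, in a comparison where 18.2% of 23999 probe sets were called higher. The genes were picked with results of this window known, so these values are a description.

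**Figure D1:**
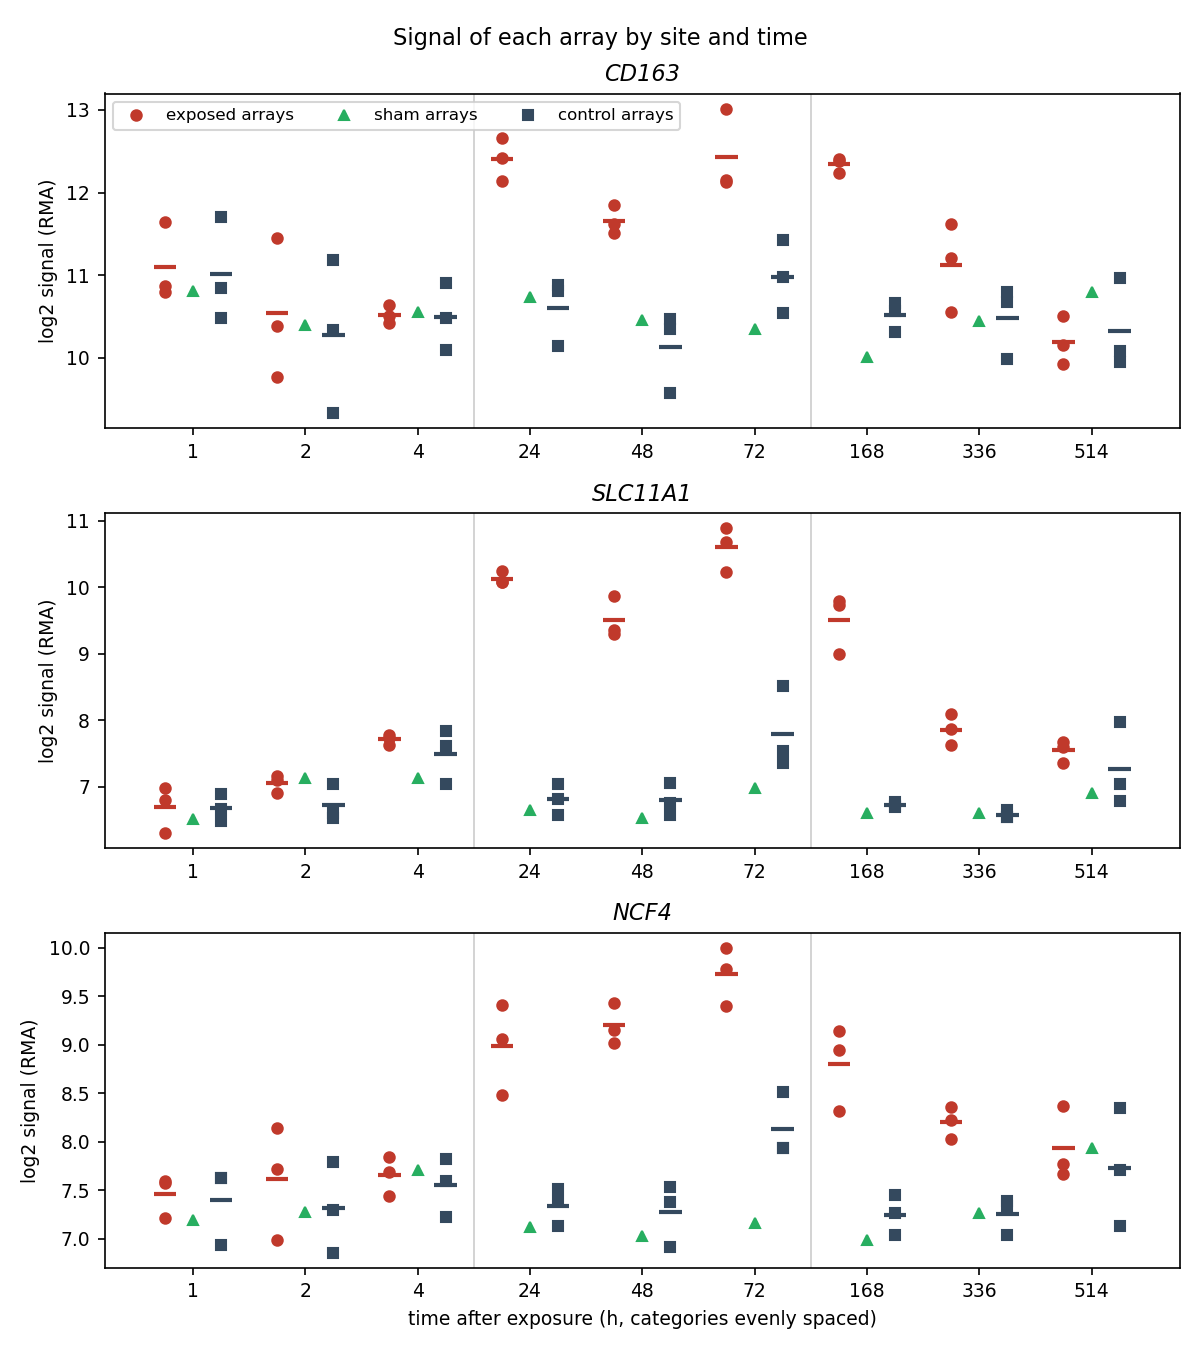
Log2 signal of each array (vertical axis) against time after exposure in h (horizontal axis, evenly spaced categories) for CD163, SLC11A1 and NCF4. Circles are exposed arrays, triangles sham arrays and squares control arrays, horizontal bars are means of 3 arrays, and vertical lines part the 3 windows. From 24 to 168 h every exposed array lies above every control array of its time in all 3 panels.

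In the early window CD163 showed wide spread between arrays. At 1 h its log2 signal was 10.86, 10.79 and 11.65 in exposed sites and 10.48, 10.84 and 11.71 in control sites. At 2 h it was 11.45, 9.77 and 10.39 in exposed sites and 9.33, 11.18 and 10.33 in control sites. At 4 h it was 10.63, 10.42 and 10.50 in exposed sites and 10.48, 10.09 and 10.90 in control sites. Exposed and control arrays overlapped at each of the 3 times. The mean difference over 1 to 4 h was 0.13 ± 0.22 (adjusted p = 0.884 in limma), with a 95% interval of -0.32 to 0.57, and 5 of 9 pairs were higher. In that window 2.07% of all probe sets were called higher.

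CD163 stood above the control range at each time from 24 to 168 h. At 24 h its log2 signal was 12.66, 12.14 and 12.42 in exposed sites, against 10.87, 10.80 and 10.14 in control sites. The lowest exposed site thus lay 1.27 above the highest control site, and the difference was 1.80 ± 0.38 (3.48-fold, adjusted p = 0.000312 in limma). At 48 h the exposed sites had 11.51, 11.85 and 11.62 and the control sites 9.57, 10.35 and 10.46, a difference of 1.53 ± 0.38 (2.89-fold, adjusted p = 0.0065 in limma). At 72 h exposed sites had 12.13, 12.16 and 13.02, against 10.98, 11.43 and 10.54 in control sites. That difference was 1.45 ± 0.38 (2.74-fold, adjusted p = 0.00911 in limma), and exposed site 3 had the highest CD163 value of all 63 arrays. Without this exposed array it was 1.16 (adjusted p = 0.114 in limma), and without control array 3 it was 1.23 (adjusted p = 0.0673 in limma), so the call at 72 h rested on single arrays.

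The scavenger receptor gene was still high at 168 h. Exposed sites had CD163 log2 signals of 12.38, 12.40 and 12.24, against 10.31, 10.66 and 10.57 in control sites, which differed by 1.83 ± 0.38 (3.55-fold, adjusted p = 0.000493 in limma). The 3 exposed sites spanned 0.16. At 336 h exposed sites had 10.55, 11.62 and 11.21 and control sites 9.98, 10.67 and 10.79, so that the groups overlapped (0.64 ± 0.38, adjusted p = 0.479 in limma; 0.39 to 0.93 with 1 array left out). At 514 h exposed sites had 10.15, 10.50 and 9.92 and control sites 9.94, 10.96 and 10.08, again overlapping, with a difference of -0.14 ± 0.38 (adjusted p = 0.896 in limma). Over 168 to 514 h CD163 was higher by 0.78 ± 0.22 (1.72-fold, adjusted p = 0.00801 in limma), in 7 of 9 pairs.

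The other CD163 probe set had a lower signal and the same calls at 9 of 9 times, 4 of them past the threshold. At 24 h it had 8.94, 9.03 and 9.48 in exposed sites, against 7.52, 7.40 and 8.38 in control sites. At 168 h it had 8.94, 9.54 and 8.62 in exposed sites, against 7.78, 8.00 and 7.37 in control sites. Its differences at 24, 48, 72 and 168 h were 1.39, 1.17, 1.15 and 1.32, each ± 0.32, against 1.80, 1.53, 1.45 and 1.83 for the brighter probe set. At 1 and 2 h the difference of this probe set was -0.33 ± 0.32 and -0.39 ± 0.32, neither past the threshold, where the brighter probe set had 0.09 ± 0.38 and 0.26 ± 0.38.

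SLC11A1, the phagosomal metal transporter gene, had the largest change of the 3 genes. At 1 h its log2 signal was 6.31, 6.81 and 6.98 in exposed sites and 6.48, 6.89 and 6.67 in control sites. At 2 h it was 7.16, 6.90 and 7.10 in exposed sites and 6.53, 7.04 and 6.61 in control sites. At 4 h it was 7.77, 7.63 and 7.74 in exposed sites and 7.84, 7.05 and 7.62 in control sites. The groups overlapped at all 3 times, and over 1 to 4 h the difference was 0.19 ± 0.14 (adjusted p = 0.62 in limma; 95% interval -0.11 to 0.48).

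From 24 h the SLC11A1 values of exposed and control sites were far apart. At 24 h exposed sites had 10.08, 10.08 and 10.24, against 6.57, 6.81 and 7.05 in control sites, a difference of 3.32 ± 0.25 (9.98-fold, adjusted p = 1.19e-12 in limma). At 48 h exposed sites had 9.86, 9.36 and 9.30, against 6.76, 6.58 and 7.06 in control sites, which differed by 2.71 ± 0.25 (6.53-fold, adjusted p = 1.64e-09 in limma). At 72 h exposed sites had 10.68, 10.23 and 10.88, against 8.51, 7.36 and 7.53 in control sites, a difference of 2.80 ± 0.25 (6.96-fold, adjusted p = 4.85e-10 in limma). The first control site at 72 h, at 8.51, was the highest of the 27 control arrays for SLC11A1, and it was still below every exposed array from 24 to 168 h. At 168 h exposed sites had 9.73, 9.80 and 9.00, against 6.72, 6.70 and 6.77 in control sites, a difference of 2.78 ± 0.25 (6.86-fold, adjusted p = 1.76e-10 in limma).

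SLC11A1 stayed above the control sites at 336 h. Exposed sites had 8.10, 7.87 and 7.63, against 6.65, 6.54 and 6.55 in control sites, without overlap (1.28 ± 0.25, 2.43-fold, adjusted p = 0.00136 in limma). At 514 h exposed sites had 7.36, 7.68 and 7.60 and control sites 6.78, 7.97 and 7.04, which overlapped (0.28 ± 0.25, adjusted p = 0.594 in limma; 0.04 to 0.63 with 1 array left out). Averaged over 168 to 514 h, the exposed minus control difference of SLC11A1 was 1.45 ± 0.14 (2.73-fold, adjusted p = 9.06e-10 in limma). It was positive in 8 of 9 pairs, and 12% of all probe sets were called higher in that window.

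NCF4, the oxidase subunit gene, followed the same times with a smaller range. At 1 h its log2 signal was 7.21, 7.58 and 7.60 in exposed sites and 6.94, 7.63 and 7.62 in control sites. At 2 h it was 8.15, 6.99 and 7.72 in exposed sites and 6.86, 7.80 and 7.30 in control sites. At 4 h it was 7.69, 7.84 and 7.44 in exposed sites and 7.60, 7.23 and 7.82 in control sites. Every one of these comparisons overlapped, and the 1 to 4 h difference was 0.16 ± 0.16 (adjusted p = 0.747 in limma; 95% interval -0.17 to 0.49).

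At 24 h the NCF4 signal was 9.06, 8.48 and 9.41 in exposed sites, against 7.51, 7.39 and 7.13 in control sites (1.64 ± 0.28, 3.12-fold, adjusted p = 1.72e-05 in limma). At 48 h it was 9.15, 9.02 and 9.43 in exposed sites, against 7.38, 6.91 and 7.54 in control sites (1.92 ± 0.28, 3.79-fold, adjusted p = 1.08e-05 in limma). The lowest exposed site at 48 h lay 1.48 above the highest control site. At 72 h it was 9.78, 9.40 and 10.00 in exposed sites, against 8.51, 7.94 and 7.94 in control sites (1.60 ± 0.28, 3.02-fold, adjusted p = 0.000141 in limma). The first control site at 72 h was again the highest control array, as for SLC11A1. At 168 h it was 9.14, 8.94 and 8.32 in exposed sites, against 7.04, 7.45 and 7.27 in control sites (1.55 ± 0.28, 2.93-fold, adjusted p = 8.3e-05 in limma).

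NCF4 lay just past the threshold at 336 h. Exposed sites had 8.22, 8.36 and 8.03, against 7.39, 7.04 and 7.34 in control sites, without overlap (0.95 ± 0.28, 1.93-fold, adjusted p = 0.0451 in limma). This call was lost when exposed array 1 or 2 or any of the 3 control arrays was left out, with adjusted p up to 0.209 in limma and differences of 0.84 to 1.04, and it was lost with the RNA extraction date or the in vitro transcription date as a block. At 514 h exposed sites had 7.67, 8.37 and 7.77 and control sites 7.14, 8.34 and 7.71. The groups overlapped although each of the 3 pairs was higher, with a difference of 0.21 ± 0.28 (adjusted p = 0.753 in limma). Averaged over 168 to 514 h, NCF4 was higher in exposed sites by 0.90 ± 0.16 (1.87-fold, adjusted p = 5.26e-05 in limma), in 9 of 9 pairs.

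**Figure D2:**
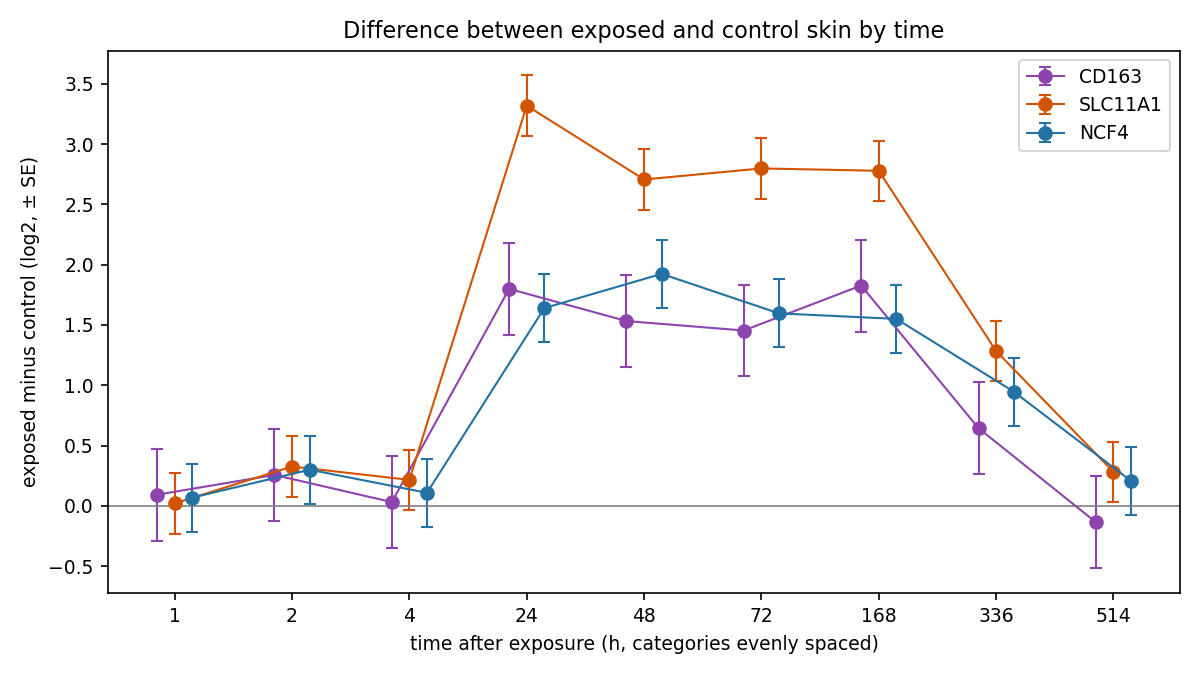
Exposed minus control difference in log2 signal (vertical axis, points with standard errors from limma) against time after exposure in h (horizontal axis, evenly spaced categories) for CD163, SLC11A1 and NCF4. Up to 4 h the largest difference is 0.33 in size, SLC11A1 lies highest from 24 to 336 h, and at 514 h the largest size is 0.28.

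Counted over the 3 genes, 0 were called at 1, 2, 4 and 514 h, where 0.413%, 0.338%, 1.11% and 3.7% of all probe sets were called higher. At 24, 48, 72 and 168 h 3 of 3 were called, where 14.4%, 5.84%, 5.4% and 9.87% of all probe sets were called higher. At 336 h 2 of 3 were called, SLC11A1 and NCF4, where 2.38% of all probe sets were called higher. The same counts held for exposed arrays that all lay above the control arrays. That separation was met by 5.4%, 4.57%, 5.52%, 19.9%, 13.5%, 13.8%, 17.1%, 14.2% and 15.3% of all probe sets at 1, 2, 4, 24, 48, 72, 168, 336 and 514 h. As the genes were picked with results of the 24 to 72 h window known, the counts at those times are a description. The same holds for the adjusted p of every test that uses those times.

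The time course itself was tested by differences between times. An F test of any change of the exposed minus control difference over the 9 times gave an adjusted p of 1e-10 for SLC11A1, 0.000208 for NCF4 and 0.00611 for CD163 in limma, where 18.7% of all probe sets were called. The 24 to 72 h difference exceeded the 1 to 4 h one by 2.75 ± 0.21 for SLC11A1, 1.56 ± 0.23 for NCF4 and 1.47 ± 0.31 for CD163. All 3 were called (adjusted p = 1.77e-12, 5.13e-06 and 0.000717 in limma), as were 10.1% of all probe sets in that direction. Between the neighbouring times 4 and 24 h the difference grew by 3.10 ± 0.36 for SLC11A1, 1.53 ± 0.40 for NCF4 and 1.77 ± 0.54 for CD163, and all 3 were called (adjusted p = 3.83e-07, 0.00876 and 0.0274 in limma), with 7.02% of all probe sets called in that direction. For the other CD163 probe set this step was 1.28 ± 0.45 and missed the threshold (adjusted p = 0.0609 in limma).

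The later decline from the 24 to 72 h window, which has the same limit, passed the threshold for SLC11A1 and NCF4. Between the 24 to 72 h and 168 to 514 h windows the difference fell by 1.49 ± 0.21 for SLC11A1 (adjusted p = 6.18e-06 in limma) and by 0.82 ± 0.23 for NCF4 (adjusted p = 0.0193 in limma). For CD163 the estimate was -0.82 ± 0.31, with an adjusted p of 0.0976 in limma and a 95% interval of -1.45 to -0.19 that is not adjusted for multiple tests. In that comparison 4% of all probe sets were called lower. Of the steps between neighbouring late times only that of SLC11A1 between 168 and 336 h was called, at -1.49 ± 0.36 (adjusted p = 0.0227 in limma, 0.538% of all probe sets called lower). The same step was -1.18 ± 0.54 for CD163 (adjusted p = 0.43 in limma) and -0.60 ± 0.40 for NCF4 (adjusted p = 0.711 in limma). Between 336 and 514 h the step was called for none of SLC11A1, NCF4 and CD163 (adjusted p = 0.514, 0.708 and 0.806 in limma), nor was any of all probe sets called lower (0%).

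As levels in exposed skin, 72 h had the highest mean for all 3 genes. CD163 averaged 12.4 ± 0.50 at 72 h, 12.4 ± 0.26 at 24 h and 12.3 ± 0.09 at 168 h (SD, n = 3 each). These 3 overlapped in turn, while the next level, 11.7 ± 0.18 at 48 h, lay below the 168 h range. SLC11A1 averaged 10.6 ± 0.34 at 72 h, 10.1 ± 0.09 at 24 h, and 9.51 at both 168 and 48 h (SD 0.44 and 0.31, n = 3 each). The ranges at 72 and 24 h overlapped, and so did those at 168 and 48 h. The next level was 7.86 ± 0.23 at 336 h, below the range at 48 h and overlapping that of 4 h, at 7.72 ± 0.07. NCF4 averaged 9.73 ± 0.30 and 9.20 ± 0.21 at 72 and 48 h, then 8.98 ± 0.47 and 8.80 ± 0.43 at 24 and 168 h (SD, n = 3 each), and each of the 9 levels of this gene overlapped its neighbour in the order.

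The order of levels over times is bound to the processing. The arrays fell into 3 processing periods by RNA extraction and in vitro transcription date, and these held 1, 24 and 168 h, then 2, 48 and 336 h, then 4, 72 and 514 h. Control sites of these periods averaged 6.74 ± 0.17, 6.70 ± 0.21 and 7.52 ± 0.54 for SLC11A1 and 7.33 ± 0.25, 7.28 ± 0.30 and 7.80 ± 0.45 for NCF4 (SD, n = 9 each). The control level of both genes was thus highest in the period that holds 72 h, and levels at single times cannot be told apart from the period. For CD163 the control means were 10.7 ± 0.45, 10.3 ± 0.59 and 10.6 ± 0.50 (SD, n = 9 each). Differences between exposed and control sites lie within a time and within a period, and each window holds 1 time of each period.

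Within a time, some arrays differed in RNA extraction or in vitro transcription date. Inside the single dates that hold exposed and control sites of a time, 11 values were available for each gene, 10 of them positive. Arrays of 24 h and the split at 336 h were counted under both kinds of date, so the values are not independent. The negative values were at 1 h, at -0.17 for CD163, -0.08 for SLC11A1 and -0.16 for NCF4. At 24 h the values within the RNA extraction date were 1.57 for CD163, 3.44 for SLC11A1 and 1.53 for NCF4. At 72 h they were 1.23 for CD163, 2.66 for SLC11A1 and 1.5 for NCF4. At 336 h the 2 dates gave 1.10 and 0.48 for CD163, 1.33 and 1.08 for SLC11A1, and 0.90 and 0.84 for NCF4. At 336 h these dates held 2 exposed and 1 control array, and 1 exposed and 2 control arrays.

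Sham skin stayed near control skin for the 3 genes. The 9 sham arrays ranged from 10.0 to 10.8 with a median of 10.5 for CD163, against 9.33 to 11.7 with a median of 10.5 in the 27 control arrays. For SLC11A1 the sham arrays ranged from 6.52 to 7.14 with a median of 6.66, against 6.48 to 8.51 with a median of 6.78 in control arrays. For NCF4 they ranged from 6.99 to 7.94 with a median of 7.19, against 6.86 to 8.51 with a median of 7.39 in control arrays. Pooled over times, the sham and control ranges thus overlapped for each gene. Averaged over the 9 times, sham minus control was -0.03 ± 0.18 for CD163, -0.20 ± 0.12 for SLC11A1 and -0.17 ± 0.13 for NCF4, none of them called (adjusted p = 0.981, 0.625 and 0.737 in limma, with 0.0208% of all probe sets called in either direction). At 72 h the sham array had 10.34 for CD163, 6.98 for SLC11A1 and 7.16 for NCF4, each below all 3 control arrays of that time. At 168 h the sham array, at 10.01, 6.60 and 6.99 for the same genes, was again below all 3 control arrays. At 1, 2, 4, 24, 48, 336 and 514 h the sham array had 10.81, 10.40, 10.55, 10.74, 10.46, 10.44 and 10.80 for CD163. For SLC11A1 it had 6.52, 7.14, 7.14, 6.66, 6.53, 6.62 and 6.90. For NCF4 it had 7.19, 7.28, 7.71, 7.13, 7.03, 7.26 and 7.94. Of these values SLC11A1 at 2 h lay above all 3 control arrays of its time. NCF4 at 24 h and SLC11A1 at 48 h lay below them, and the others lay within the control range. Against the sham arrays, which share the exposed arrays with the main comparison, the 24 to 72 h difference was 1.66 ± 0.31 for CD163, 3.36 ± 0.21 for SLC11A1 and 2.20 ± 0.23 for NCF4, all called (adjusted p = 7.56e-05, 3.14e-15 and 2.04e-09 in limma, with 13.7% of all probe sets called higher).

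The 3 genes did not rise by equal amounts. Within the same arrays at 24 to 72 h, the SLC11A1 change exceeded that of CD163 in 9 of 9 pairs, with a CD163 minus SLC11A1 difference of -1.35 (SD over pairs 0.47). It exceeded that of NCF4 in 9 of 9 pairs, with a SLC11A1 minus NCF4 difference of 1.22 (SD over pairs 0.59). Both had p = 0.00025 in a two-sided exact permutation test of exposed and control labels within times, the smallest p that its 8000 arrangements can give, and an adjusted p of 0.00113 over the 9 comparisons made. CD163 and NCF4 changes differed by -0.12 (adjusted p = 0.798, exact permutation), with CD163 the larger in 4 of 9 pairs. The array compresses differences of dim probe sets, and the 3 genes differ in brightness, so unequal changes in signal need not equal unequal changes in RNA.

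At 168 to 514 h SLC11A1 again had a larger change than CD163 and NCF4, and whether these gaps differ from those at 24 to 72 h was not tested. CD163 minus SLC11A1 was -0.67, with SLC11A1 the larger in 9 of 9 pairs (adjusted p = 0.0112, exact permutation). SLC11A1 minus NCF4 was 0.55, with SLC11A1 the larger in 8 of 9 pairs (adjusted p = 0.0112, exact permutation). CD163 minus NCF4 was -0.12 (adjusted p = 0.798, exact permutation). At 1 to 4 h the 3 differences were -0.06, 0.03 and -0.03, each with an adjusted p of 0.837 (exact permutation).

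**Figure D3:**
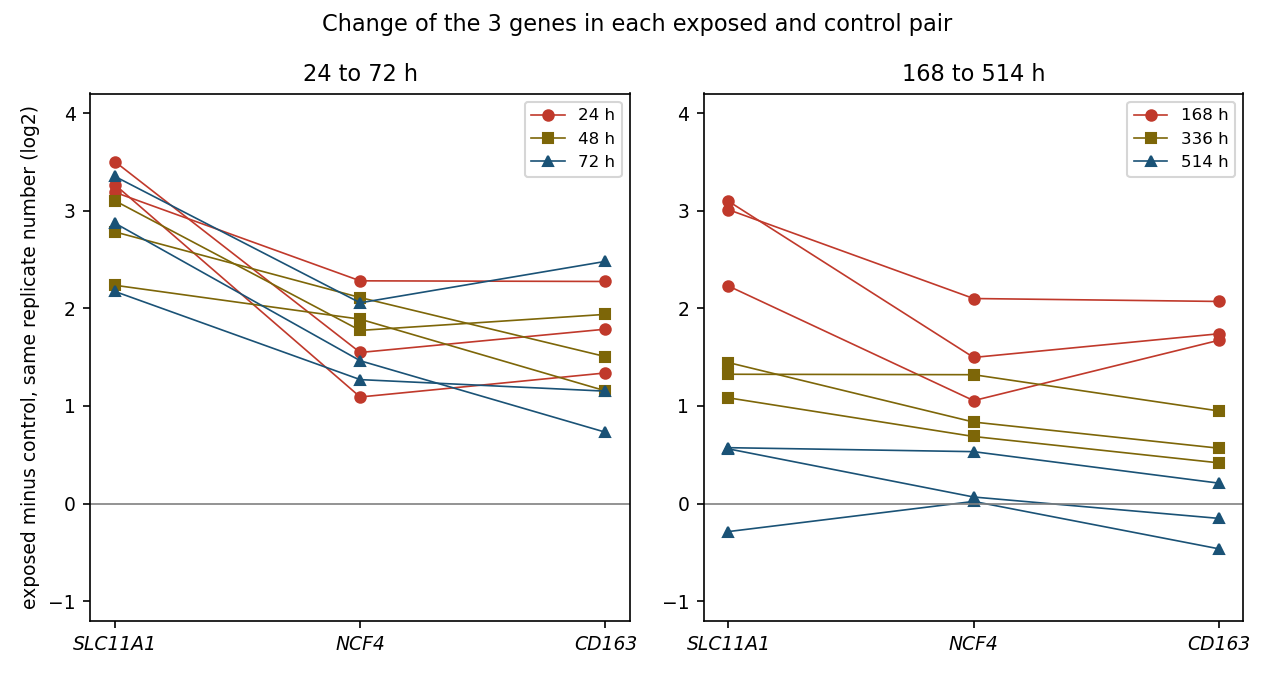
Exposed minus control difference in log2 signal (vertical axis) of SLC11A1, NCF4 and CD163 (horizontal axis) at 24 to 72 h (left) and 168 to 514 h (right). Each line joins the values of 1 pair of arrays with the same replicate number and its symbol gives the time; SLC11A1 is the highest point of all 9 lines on the left.

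Arrays of a group that were high in NCF4 also tended to be high in CD163 and SLC11A1. These relations use each array's deviation from the mean of its group of 3, with 27 exposed and 27 control arrays, and the 2 values of a point come from the same array. For CD163 and NCF4, Pearson's r was 0.613 in exposed skin (permutation p = 0.00989, adjusted p = 0.0184 over 6 relations; Spearman's rho 0.562, permutation p = 0.0119) and 0.636 in control skin (permutation p = 0.0123, adjusted p = 0.0184; rho 0.559, permutation p = 0.024). Without the 2 arrays farthest from the median of CD163, r was 0.415 in exposed and 0.524 in control skin. With the mean of both CD163 probe sets the control relation was not called (0.528, adjusted p = 0.0586, permutation). For SLC11A1 and NCF4, r was 0.598 in exposed skin (permutation p = 0.00186, adjusted p = 0.00558; rho 0.576, permutation p = 0.00608) and 0.756 in control skin (permutation p = 0.00095, adjusted p = 0.00558; rho 0.709, permutation p = 0.00139), and 0.51 and 0.673 without the 2 farthest arrays. For CD163 and SLC11A1, r was 0.27 in exposed skin (permutation p = 0.203; rho 0.226, permutation p = 0.332) and 0.346 in control skin (permutation p = 0.144; rho 0.289, permutation p = 0.225), neither past the threshold.

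Within the 3 processing periods, with 9 arrays each, the CD163 and NCF4 relation had r of 0.44, 0.736 and 0.663 in exposed skin and 0.785, 0.541 and 0.702 in control skin. That of SLC11A1 and NCF4 had 0.75, 0.31 and 0.707 in exposed skin, and 0.143, 0.897 and 0.909 in control skin. The relation of SLC11A1 and NCF4 was thus weakest among the control arrays of 1, 24 and 168 h. That of CD163 and SLC11A1 had 0.466, -0.02 and 0.642 in exposed skin, and -0.22, 0.555 and 0.528 in control skin.

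Over all 63 arrays, where exposed and control differences enter too, the genes most like CD163 among 6764 others were MRC1 (r = 0.858), the macrophage mannose receptor gene, TYROBP (0.844), which encodes a signalling adaptor of myeloid receptors, GMFG (0.843), LCP2 (0.841) and ACSL5 (0.84). SLC11A1 was most like CCR1 (0.962), a chemokine receptor gene of monocytes, the heme oxygenase gene HMOX1 (0.942), the interleukin 4 receptor gene IL4R (0.938), the complement factor B gene CFB (0.937) and NCF4 (0.937). NCF4 was most like AIF1 (0.949), which encodes the macrophage protein IBA1, SLC11A1 (0.937), the thromboxane synthase gene TBXAS1 (0.931), the Fc receptor gamma chain gene FCER1G (0.928) and FOLR1 (0.927). CD163 had r of 0.794 with SLC11A1 and 0.82 with NCF4. These values are a description, because all genes share the arrays and the exposure.

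Monocyte and macrophage markers were then set beside the 3 genes. Of 29 listed markers 19 were measured, and of these 14 rose and 0 fell at 24 to 72 h, with a median log2 difference of 0.53. Over all 6765 genes 2084 (30.8%) rose and 967 (14.3%) fell in that window, with a median of 0.06, and at 168 to 514 h 1277 (18.9%) rose and 708 (10.5%) fell. The counts of the other lists stand against these shares. AIF1 rose by 1.58 ± 0.15, the lipopolysaccharide co-receptor gene CD14 by 1.51 ± 0.15, and SPI1, which encodes the myeloid transcription factor PU.1, by 1.39 ± 0.15 (adjusted p = 3.15e-11, 1.19e-10 and 7.41e-10 in limma). MRC1 rose by 1.09 ± 0.12 (adjusted p = 2.6e-09 in limma). SLC11A1 and NCF4 lay above every one of the 19 markers in this window, and CD163 lay just above AIF1. As the 3 genes were picked with results of this window known, their place in this order is a description.

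The 5 markers not past the threshold at 24 to 72 h, picked out after their values were seen, were the complement genes C1QA (-0.09 ± 0.21) and C1QC (0.02 ± 0.19), the integrin gene ITGAM (0.04 ± 0.09), LYVE1 (0.14 ± 0.14) and the scavenger receptor gene MARCO (0.03 ± 0.08). At 168 to 514 h 15 of the 19 markers rose and 1 fell, with a median of 0.63 against 0.02 over all genes. C1QA (0.57 ± 0.21) and C1QC (0.69 ± 0.19) were then among those that rose, while LYVE1, a marker of resident perivascular macrophages and lymphatic vessels, fell by 0.45 ± 0.14 (adjusted p = 0.0194 in limma). The mean level of the 19 markers per array ranged from 9.67 to 10.3 in exposed sites at 24 to 72 h, against 8.91 to 9.76 in control sites. At single times 11, 11, 12 and 14 markers rose at 24, 48, 72 and 168 h, 7 rose at 336 h, and 0 rose at 1, 2, 4 and 514 h. Over all genes 24.9%, 11.5%, 9.12% and 14.5% rose at 24, 48, 72 and 168 h, and 4.18% at 336 h. At 514 h 1 marker fell, LYVE1 (-0.96 ± 0.25, adjusted p = 0.0157 in limma), which is named after its value was seen, and 2% of all genes fell.

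**Figure D4:**
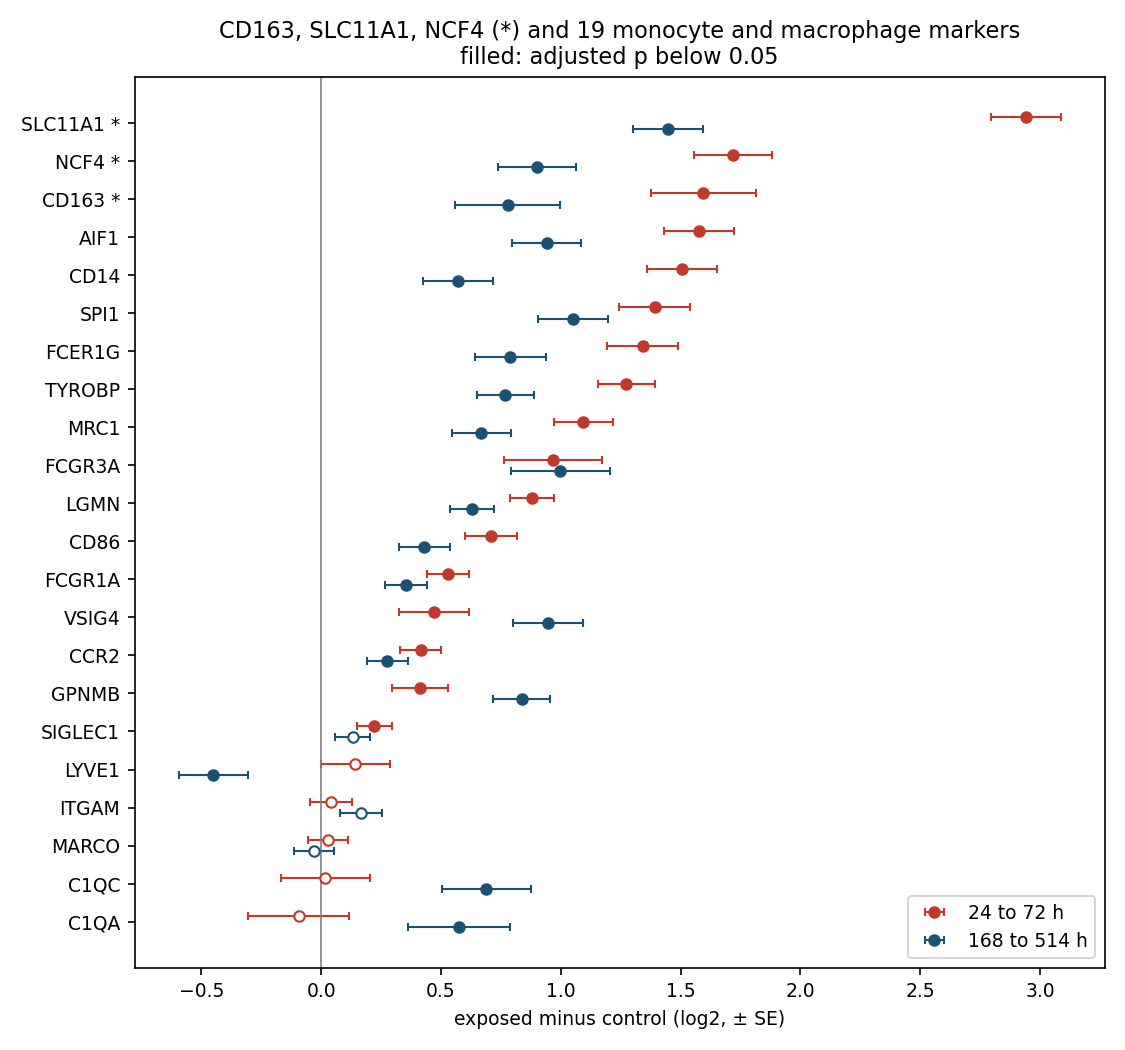
Exposed minus control difference in log2 signal (horizontal axis, points with standard errors from limma) of CD163, SLC11A1 and NCF4 (starred) and 19 monocyte and macrophage markers (rows), at 24 to 72 h and at 168 to 514 h. Filled points have an adjusted p under 0.05. Rows are ordered by the 24 to 72 h difference, and 14 of the 19 markers are filled there. SLC11A1, NCF4 and CD163 are the top 3 rows, and they were picked with results of that window known.

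Markers of other cell types were read in the same way. Of 18 neutrophil markers 7 were measured, and 4 rose at 24 to 72 h and 4 at 168 to 514 h (57.1% each, against 30.8% and 18.9% of all genes), with medians of 0.23 and 0.24. With only probe sets above the overall median, 1 rose in each window. Dimmer markers are left out of that count and were not retested. The calprotectin genes S100A9 and S100A8 and the related S100A12 rose by 2.74 ± 0.40, 1.11 ± 0.17 and 1.28 ± 0.21 at 24 to 72 h, and S100A9 by 3.85 ± 0.40 at 168 to 514 h. In that later window SLC11A1, NCF4 and CD163 had smaller differences than at 24 to 72 h, a fall not called for CD163. No test was made between S100A9 and the 3 genes. These S100 genes are also expressed in monocytes and in wounded epidermis. The other 4 markers are named after their values were seen. At 24 to 72 h PGLYRP1, a peptidoglycan recognition protein gene of neutrophil granules, rose by 0.23 ± 0.09 (adjusted p = 0.0499 in limma, and 0.0575 with the replicate number as a block, where 3 of the 7 markers rose), while the gelatinase gene MMP9 was at 0.13 ± 0.08, the neutrophil elastase gene ELANE at -0.03 ± 0.07 and OLFM4 at 0.04 ± 0.05. At 168 to 514 h MMP9 rose by 0.24 ± 0.08 (adjusted p = 0.029 in limma). The mean neutrophil marker level ranged from 7.05 to 8.09 in exposed sites against 6.40 to 7.16 in control sites at 24 to 72 h, and from 7.43 to 8.37 against 6.57 to 7.47 at 168 to 514 h. The part of neutrophils in the SLC11A1 and NCF4 differences was not tested.

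Of 9 measured T, NK and B lymphocyte markers 0 rose at 24 to 72 h, and the largest difference was that of CD2 (0.48 ± 0.26, adjusted p = 0.149 in limma). With the replicate number as a block 2 of these lymphocyte markers rose, and against sham arrays 3 rose. Dendritic cell markers XCR1 and CCR7 rose by 0.22 ± 0.07 and 0.16 ± 0.05, 2 of 3 measured, and neither of the 2 measured mast cell markers was called, with KIT at -0.19 ± 0.10 (adjusted p = 0.137 in limma). With the replicate number as a block KIT fell (adjusted p = 0.0252 in limma). Of 5 measured keratinocyte markers 4 fell at 24 to 72 h, among them the keratin genes KRT2 (-2.61 ± 0.35), KRT1 (-2.25 ± 0.16) and KRT10 (-1.84 ± 0.14), and the mean level per array was 9.27 to 10.8 in exposed sites against 10.9 to 11.9 in control sites. Over all genes 14.3% fell. Of 5 fibroblast markers 3 fell, COL1A2 (-0.63 ± 0.24), DPT (-0.60 ± 0.13) and LUM (-0.29 ± 0.07). Of 7 endothelial markers 2 rose and 2 fell (28.6% each), a rising share close to the 30.8% of all genes, with ENG at 0.50 ± 0.09, CLDN5 at -0.47 ± 0.12 and VWF at -0.38 ± 0.10. None of the 4 adipocyte markers was called in that window, with ADIPOQ at -0.24 ± 0.21. A loss of epidermal RNA leaves other RNA a larger share of a biopsy, and its part in the differences of the 3 genes was not tested.

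Skeletal muscle markers varied widely between biopsies. Their mean level per array ranged from 6.96 to 12.8 in exposed sites (median 11.1) against 10.5 to 13.6 in control sites (median 12.2) at 24 to 72 h, and 0 of 12 were called, with NEB at -2.42 ± 1.10 (adjusted p = 0.0864 in limma). With the replicate number as a block 4 of the 12 fell. At 24 h alone 2 of the 12 fell in the main fit (16.7%, against 11.4% of all genes), with a median of -3.88. At 168 to 514 h 2 fell as well (16.7%, against 10.5%). With the mean muscle level as a covariate the 24 to 72 h difference was 1.56 for CD163, 2.96 for SLC11A1 and 1.72 for NCF4, each still called, and close to the values without it.

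Partners of the 3 proteins were followed by lists. Of 9 genes of the NADPH oxidase complex other than NCF4, 4 were measured and all 4 rose in both later windows (30.8% and 18.9% of all genes did), with medians of 0.66 and 0.47. Against sham arrays 1 of the 4 rose at 168 to 514 h. CYBA, which encodes the membrane subunit p22phox, rose by 0.81 ± 0.10 at 24 to 72 h, NCF1, the p47phox gene, by 0.79 ± 0.11 and RAC1 by 0.53 ± 0.06 (adjusted p = 3.56e-08, 2.91e-07 and 7.26e-09 in limma). RAC2, the fourth, named after its value was seen, rose by 0.52 ± 0.14. At 168 to 514 h CYBA was at 0.74 ± 0.10, NCF1 at 0.49 ± 0.11 and RAC1 at 0.31 ± 0.06. The NCF4 difference of 1.72 at 24 to 72 h was larger than each of these, and NCF4 was picked with results of that window known. No test was made between genes of this list and NCF4.

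Of 24 listed genes of hemoglobin, heme and iron handling 15 were measured, of which 10 rose at 24 to 72 h (66.7%, against 30.8% of all genes) and 5 at 168 to 514 h (33.3%, against 18.9%), and 0 fell in either window. With only probe sets above the overall median, 6 and 3 rose, where dimmer genes of the list are left out and were not retested. HMOX1, the heme oxygenase gene downstream of CD163 uptake, rose by 2.27 ± 0.13 and then by 1.34 ± 0.13 (adjusted p = 3.86e-16 and 8.66e-10 in limma). STEAP4, a metalloreductase gene, rose by 2.03 ± 0.25 at 24 to 72 h, and HP, which encodes the haptoglobin that CD163 binds, by 0.71 ± 0.15 (adjusted p = 1.47e-08 and 0.000148 in limma). At 168 to 514 h HP was at 0.06 ± 0.15 (adjusted p = 0.816 in limma).

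A list of 21 genes tied to these genes in monocytes held signals, receptors, proteases and response genes. It was not sorted by direction of effect, so its shares do not say that signals raising the 3 genes rose. The list had 17 measured members, of which 3 rose at 1 to 4 h, 10 rose and 2 fell at 24 to 72 h, and 10 rose and 2 fell at 168 to 514 h. The rising shares were 17.6%, 58.8% and 58.8%, against 2.85%, 30.8% and 18.9% of all genes. The falling share was 11.8% in both later windows, against 14.3% and 10.5%. IL6, a cytokine gene, rose by 1.99 ± 0.21 at 24 to 72 h, and the Toll-like receptor genes TLR2 and TLR4 by 1.96 ± 0.21 and 1.47 ± 0.14 (adjusted p = 9.38e-10, 6.24e-10 and 3.72e-11 in limma). The 2 that fell, named after their values were seen, were the glucocorticoid receptor gene NR3C1 (-0.40 ± 0.11, then -0.62 ± 0.11) and TSC22D3, a glucocorticoid-induced gene (-0.87 ± 0.10, then -0.76 ± 0.10). The 3 that rose at 1 to 4 h were IL6 (1.71 ± 0.21), TNF (0.59 ± 0.08) and IL4 (0.24 ± 0.06), also named after their values were seen. At 24 to 72 h TNF (0.15 ± 0.08) and IL4 (-0.01 ± 0.06) were not called. None of CD163, SLC11A1 and NCF4 was called at 1 to 4 h. ADAM17, the protease that sheds CD163 from the cell surface, was at 0.16 ± 0.08 at 24 to 72 h (adjusted p = 0.117 in limma).

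The histology scores in the labels belong to the same sites and are set beside the values as a description. Pustular epidermitis scored 0, 0 and 3 in exposed sites 1, 2 and 3 at 24 h and 3, 0 and 4 at 72 h. At both times the site with the highest score had the highest SLC11A1 (10.24 and 10.88) and NCF4 (9.41 and 10.00). For CD163 this held at 72 h (13.02) and not at 24 h, when site 3 had 12.42 and site 1, with a score of 0, had 12.66. At 48 h the scores were 2, 3 and 1, and the site with the highest score had the highest CD163 (11.85). The highest SLC11A1 (9.86) was at site 1 and the highest NCF4 (9.43) at site 3, which had the lowest score. Other early scores were not all ordered alike. Follicular damage scored 3, 2 and 2 at 24 h, 2, 2 and 1 at 48 h, and 2, 1 and 0 at 72 h. At 72 h site 3 thus had the lowest follicular score. Vesicles scored 2, 1 and 1, then 2, 2 and 1, then 1, 1 and 3, highest at site 3 only at 72 h. No relation between scores and genes was tested. From 168 h another scale was used, on which all control and sham sites scored 1 for inflammatory cells. On this scale 1 is thus the score of unexposed skin, and 0 departs from it. A score of 0 is therefore not read as an absence of inflammatory cells. All 3 exposed sites scored 0 at 168 h. At 336 h exposed site 3 scored 1, and it had the lowest SLC11A1 (7.63) and NCF4 (8.03) of the 3, while its CD163 (11.21) lay between the other values. This site also differed from sites 1 and 2 in RNA extraction and in vitro transcription date. Site 3 at 24 h differed from sites 1 and 2 in in vitro transcription date. At each time site 3 had another collection date than sites 1 and 2. Its score and these dates cannot be told apart. At 514 h site 2 alone scored 0, and it had the highest CD163 (10.50), SLC11A1 (7.68) and NCF4 (8.37).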

How the data were processed

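The authors deposited log2 signals per probe set, and RMA and Partek are named, without versions, per the submitters' processing notes. RMA compresses differences of dim probe sets. No further scaling was applied. Of 24123 probe sets 124 controls were left out. Probe sets were named through a table of the array's platform annotation. It gives no genome build, and no coordinates or sequences are shown.

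In limma 3.58.1 (R 4.3.3), 1 model covered the 63 arrays with a mean for each of 27 groups, 36 residual and 3.24 prior degrees of freedom, and Benjamini-Hochberg adjustment over 23999 probe sets (two-sided, threshold 0.05). Sham groups of 1 array are taken to vary like the others. Arrays were treated as independent, although exposed and control sites share animals. Permutation tests ran in Python 3.11.15 (numpy 2.4.6), exact for differences between genes and with 100000 resamples for correlations. The limma fit was tested on simulated data with independent noise, without shared animals or dates. The permutation tests were not tested on simulated data.

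The labels do not say whether a replicate number marks an animal. Same-numbered exposed and control arrays share their collection date in 27 of 27 pairs, but replicates 1 and 2 share it too. Residuals of these pairs had a mean r of 0.27 over probe sets, above 0.1 in 21 of 27. Arrays of unequal number were not compared, so this value cannot tell a shared animal from a shared date. The main fit has no block, and the block is an alternative. Genes were named by rule: the 3 members; per list up to 3 genes with the largest called change at 24 to 72 h, or the largest where none was called; the 5 genes most like each member; and known partners. Members and lists were chosen with earlier results of these data known.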

Additional observations from a re-analysis of the deposited data

Results flagged for a closer look

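Each result here is a difference between times in the exposed minus control contrast that passed its own test in limma. The 24 to 72 h difference exceeded the 1 to 4 h difference by 1.47 for CD163, 2.75 for SLC11A1 and 1.56 for NCF4. Between 4 and 24 h the difference grew by 1.77 for CD163, 3.10 for SLC11A1 and 1.53 for NCF4. From 24 to 72 h to 168 to 514 h it changed by -1.49 for SLC11A1 and -0.82 for NCF4. Between 168 and 336 h it changed by -1.49 for SLC11A1. Times 4 and 24 h, and times 168 and 336 h, lie in different processing periods, and the part of the period in these steps was not tested, while the windows are balanced over periods.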

How the results depend on the processing

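The differences that passed at 24, 48, 72 and 168 h and in the 24 to 72 h window were past the threshold in every alternative fit in which the gene was tested, apart from CD163 at 48 and 72 h as given here. With the replicate number as a block, 42 of 42 results kept their side and direction, among them CD163 at 24 to 72 h (1.60, adjusted p = 4.92e-06) and NCF4 at 336 h (0.95, adjusted p = 0.0376); whether the number pairs the arrays is not stated. NCF4 at 336 h was not called with the in vitro transcription date (0.87, adjusted p = 0.125) or the RNA extraction date (0.87, adjusted p = 0.136) as a block, after repeated quantile normalization (0.92, adjusted p = 0.0548) or against sham arrays (0.94, adjusted p = 0.377), and leaving out an array gave 0.84 to 1.04. CD163 at 72 h was not called with the RNA extraction date as a block (1.23, adjusted p = 0.064), and leaving out an array gave 1.16 to 1.68. Against sham arrays, with 1 array a time, the values of CD163 at 48 h (1.20, adjusted p = 0.171) and over 168 to 514 h (0.80, adjusted p = 0.0928) and of SLC11A1 at 336 h (1.25, adjusted p = 0.0764) were not called. The CD163 change from 24 to 72 h to 168 to 514 h was called when only those arrays were fitted (-0.82, adjusted p = 0.0356). With the mean of both CD163 probe sets the control correlation of CD163 and NCF4 was 0.528 (adjusted p = 0.0586). For these changes the cause was not tested.

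Uncalled differences changed sign: for CD163 with the mean of its probe sets to -0.12 at 1 h, -0.065 at 2 h and -0.039 over 1 to 4 h, and against sham arrays to -0.028 for CD163 at 4 h, -0.083 for SLC11A1 at 2 h, and -0.048 and -0.0052 for NCF4 at 4 and 514 h. Leaving out an array moved CD163 between -0.18 and 0.44 at 1 h, -0.22 and 0.71 at 2 h, and -0.17 and 0.24 at 4 h. At 514 h the bounds were -0.33 and 0.18, and over 1 to 4 h they were -0.032 and 0.28. It moved SLC11A1 between -0.12 and 0.22 at 1 h, and between -0.012 and 0.38 at 4 h. At 1, 4 and 514 h it moved NCF4 between -0.16 and 0.19, -0.052 and 0.24, and -0.090 and 0.51. Keeping only probe sets above the overall median left 28 results, all kept; the probe set of 1 gene was then not tested.

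Of the list counts under alternatives 32 moved by over 1.5 times and 592 did not. Against sham arrays, NADPH oxidase genes that rose at 168 to 514 h numbered 1 against 4 in the main fit, heme and iron genes 3 against 5, and T, NK and B lymphocyte genes at 24 to 72 h 3 against 0. With only brighter probe sets, neutrophil genes that rose numbered 1 against 4 in both later windows and heme and iron genes 6 against 10 and 3 against 5. Fewer genes of a list are measured in that setting, so these lower counts need not be lost calls. With the block, skeletal muscle genes that fell at 24 to 72 h numbered 4 against 0, and T, NK and B lymphocyte genes that rose 2 against 0 and 4 against 1. An array gives no read depth; dim probe sets such as SLC11A1 in control skin limit the fold that can be seen.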
